A study of Mus musculus with 4 samples.

Results

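Aquaporin 4 is the water channel of astrocyte endfeet, and a complex built on dystrophin holds it at the membrane that faces blood vessels and the surface of the cord. The set described here comprised 6 genes of the 32285 Ensembl genes in the count matrices, given as a list of names by a rule that used no measured value, although earlier results of these data were known when the list was drawn up. They were Aqp4, the channel, Dmd (dystrophin), Dtna (dystrobrevin alpha), Dag1 (dystroglycan), and the partner pair Mlc1 and Hepacam. All 6 were measured cell by cell in mouse cord, after contusion and without injury.

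As background, the laminin of the basal lamina around a vessel binds dystroglycan, dystroglycan binds dystrophin or its relative utrophin inside the cell, and dystrobrevin and the syntrophins join dystrophin to channels such as aquaporin 4. Mlc1 is a membrane protein and Hepacam an adhesion protein that sit together at contacts between astrocyte endfeet and take part in volume regulation. Aquaporin 4 is best known in the cord for water movement in oedema and as the antigen of neuromyelitis optica.

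The mice were of the Cx30-Tom line (Cx30-tdTomato in the sample labels), in which tamoxifen switches on tdTomato in cells that use the Cx30 promoter. Cx30, a gap junction gene of astrocytes, is also used by other cells, so the sort was for the reporter and not for a cell type. Animals entered the study at 8 to 12 weeks of age and received a pool of enhancer AAVs in the blood. Injured animals had the pool 14 days before a contusion and were sampled 3 days after it, while uninjured controls carried the pool without an injury. Both groups shared the transgene, the tamoxifen and the AAV pool. Segments of 5 mm were digested and tdTomato+ cells were sorted, and by the study's description 1 to 2 animals of each sex were pooled per condition. Each condition gave 1 gene expression library, so no test between conditions was possible. Every interval below is a 95% interval of counting error and does not cover the spread between animals, libraries or cells.

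The injured library held 879 cells after filtering with a median of 6816 UMIs (unique transcript molecules), and the uninjured library held 4159 cells with a median of 3343. Cells were grouped by clustering without the 6 genes and without the pathway genes used below, so that class differences in them were not set by the clustering. Astrocyte-like cells numbered 418 in the injured library (2271816 UMIs, median 3661 per cell) and 3176 in the uninjured library (11570212 UMIs, median 3269.5). All 10 astrocyte markers were found in both, with a summed level of 15812 CPM after injury against 18977 CPM without it. CPM means UMIs of a gene per 1000000 UMIs of the summed cells. In the whole injured library 250 cells were scored female and 315 male, against 2 and 2770 in the uninjured library. The uninjured counts go against that description of animals of both sexes, and sex and condition cannot be fully told apart. The 2 libraries shared 7 cell barcodes, of which 3 were in astrocyte-like cells of each.

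Dmd has transcripts from widely separated starts, and since the counts are per gene, its long and short forms were counted together. It lies on chromosome X from 82948870 to 85206141 on the plus strand (GRCm38, GENCODE M21). The annotation holds a transcript of 79 exons that starts near the 5′ end, and transcripts of 17 and 18 exons that start inside the gene from position 85048413, as the short form Dp71 of glia does. The 250 bases before each of the 2 starts in RefSeq (GRCm38.p6, plus strand) are shown because the long and short forms start from these different regions. The first is chrX:82948620-82948869, and its capitals mark an AP-1 motif (TGANTCA). The second is chrX:85048045-85048294, and its capitals mark the NFI core letters TTGGC. Each motif was searched on both strands.
Dmd, first start: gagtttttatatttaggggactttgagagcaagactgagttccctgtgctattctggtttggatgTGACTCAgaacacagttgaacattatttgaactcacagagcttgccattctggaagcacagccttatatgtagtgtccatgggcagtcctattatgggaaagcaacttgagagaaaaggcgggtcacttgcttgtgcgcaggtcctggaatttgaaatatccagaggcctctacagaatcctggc
Dmd, internal start: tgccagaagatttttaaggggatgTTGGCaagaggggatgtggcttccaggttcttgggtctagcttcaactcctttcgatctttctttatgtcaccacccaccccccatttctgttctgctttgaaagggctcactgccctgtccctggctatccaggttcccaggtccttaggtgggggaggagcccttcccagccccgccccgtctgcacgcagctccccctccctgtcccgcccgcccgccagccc
The AP-1 letters were found in 6.75% and the NFI core letters in 41.5% of the same windows of 32851 promoters. A match of letters describes the sequence and is not evidence of binding.

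The other members are shorter genes. Dag1 lies on chromosome 9 from 108204634 to 108263958, Hepacam on chromosome 9 from 37367351 to 37386575 and Mlc1 on chromosome 15 from 88955884 to 88979007 (GRCm38). Their spans were 59.3, 19.2 and 23.1 kb, those of Aqp4 and Dtna were 21.5 and 245 kb, and that of Dmd was 2257 kb. Aqp4, Dtna and Dmd each overlapped 1 gene on the other strand (Gm50048, Gm47898 and Tsga8). No member overlapped a gene on its own strand.

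The central comparison asked whether the level of these genes in astrocytes differed between injured and uninjured cord. The members did not move as a unit. The channel Aqp4 and Mlc1 were higher after injury, Hepacam and Dag1 were slightly lower, Dtna was lower and Dmd was far lower. In astrocyte-like cells 0 of the 6 were past 2-fold higher, beside 13.8% of the 9995 genes with at least 10 CPM in 1 condition, and 1 of the 6 (Dmd) was past 2-fold lower, beside 7.66% of all genes. All 6 passed this filter. The median log2 ratio of the 6 was -0.22, and that of all genes was 0.019. Log2 ratios are of CPM with 1 CPM added to both sides.

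Aqp4 had 4955 UMIs in injured astrocyte-like cells against 16156 in uninjured ones. Its level was 2181 CPM (2121 to 2243) after injury and 1396 CPM (1375 to 1418) without, a ratio of 1.56 (1.51 to 1.61) and a log2 ratio of 0.64. The intervals of the levels did not overlap. Of the 4955 injured UMIs 725 came from 5 of 418 cells, and 184 from 1 cell. In the uninjured library 139 of 16156 came from 5 cells, with at most 36 from 1 cell. With each cell weighted equally the log2 ratio of Aqp4 was 0.20. Mlc1 had 811 and 2761 UMIs, and its level was 357 CPM (333 to 382) against 239 CPM (230 to 248). The ratio for Mlc1 was 1.5 (1.38 to 1.62), so the water channel and the volume regulator were higher in the injured library by a like factor.

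Dmd had 914 UMIs in injured astrocyte-like cells against 13223 in uninjured ones. Its level was 402 CPM (377 to 429) after injury and 1143 CPM (1123 to 1163) without, a ratio of 0.352 (0.329 to 0.376) and a log2 ratio of -1.50. Dtna, the dystrobrevin that binds dystrophin directly, was at 586 CPM (555 to 618) and 900.3 CPM (883 to 918). Its ratio was 0.651 (0.614 to 0.689). Both genes of the intracellular scaffold were thus lower in the injured library, with intervals well apart.

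Dag1, the receptor that links the scaffold to laminin, was at 114 CPM (101 to 129) after injury and 136 CPM (129 to 143) without, with intervals that narrowly missed each other. The ratio was 0.840 (0.734 to 0.959). Hepacam was at 449 CPM (422 to 477) and 514 CPM (501 to 527), a ratio of 0.873 (0.816 to 0.933). The direction for Hepacam was not stable. Among male cells only its log2 ratio was 0.093 against -0.20 over all cells, and under scaling by the median gene it was -0.068. That scaling moved every log2 ratio up, since the median over 2784 genes with 50 CPM in both conditions was -0.13.

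**Figure D1:**
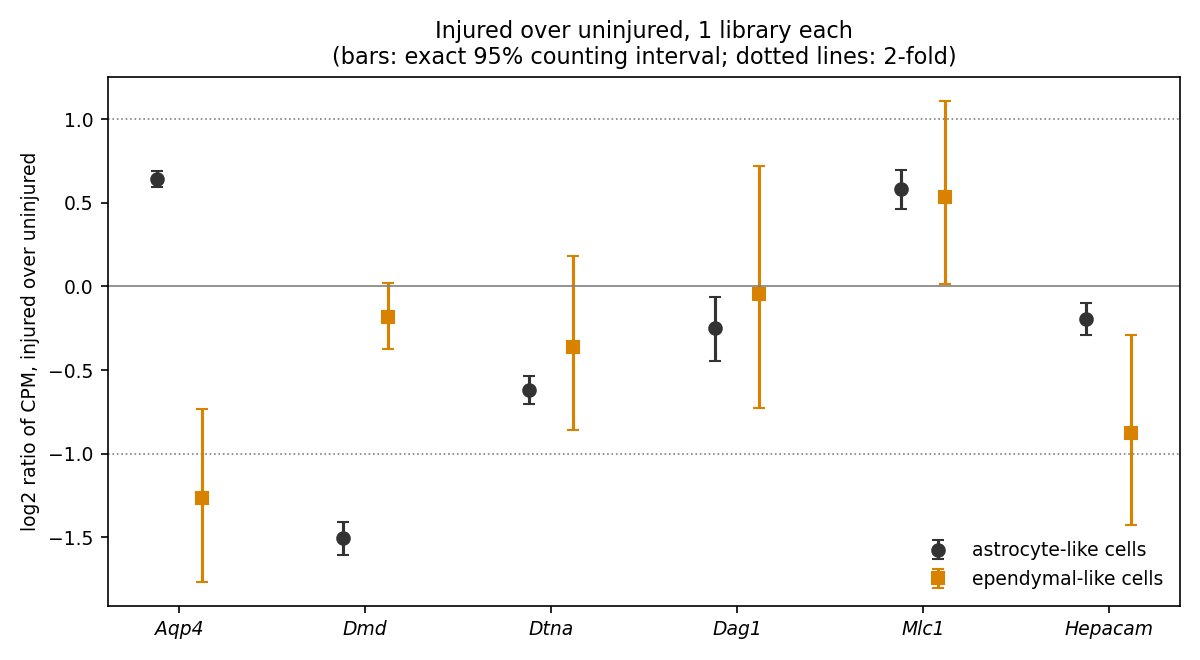
Log2 ratio of CPM (y axis), injured over uninjured, for the 6 members (x axis) in astrocyte-like (circles) and ependymal-like cells (squares), with 1 library per condition and bars for the exact 95% counting interval. In astrocyte-like cells Aqp4 and Mlc1 lie above 0 and Dmd lies below the dotted 2-fold line, whereas in ependymal-like cells Aqp4 lies below it.

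Dmd is X-linked and the uninjured library was nearly all male-scored, and the part of sex in its ratio was looked at only by restricting the cells. With male cells only (127 injured and 2149 uninjured astrocyte-like cells) the log2 ratio of Dmd was -1.16, that of Dtna -0.41, that of Aqp4 0.87 and that of Mlc1 0.71. Dmd remained past 2-fold lower and was the only member to be so.

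The span of a gene moved with its ratio in astrocyte-like cells. The median log2 ratio was 0.47 for 3858 genes under 20 kb, -0.10 for 4424 genes of 20 to 100 kb, -0.48 for 1315 genes of 100 to 300 kb and -0.61 for 398 genes over 300 kb. The share past 2-fold lower was 4.33% in the shortest class and 24.4% in the longest. Dmd belongs to the longest class, Dtna to the class of 100 to 300 kb, and their log2 ratios of -1.50 and -0.62 lay below the class medians. Of the 398 genes over 300 kb, 30 (7.54%) had a ratio at or below that of Dmd, against 2.31% of all genes tested. Aqp4 and Mlc1, of 20 to 100 kb, lay above the median of their class, and Dag1 (-0.25) and Hepacam (-0.20) lay below theirs. The spans of Aqp4 (21.5 kb), Mlc1 (23.1 kb) and Hepacam (19.2 kb) are near the 20 kb limit, where the class median changes from 0.47 to -0.10. Aqp4 (0.64) and Mlc1 (0.58) were only a little above the median of the shorter class. Hepacam was only a little below that of the longer class. The part of gene span in these differences was not tested, and whether reads in introns were counted is not given in the sources used here.

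**Figure D2:**
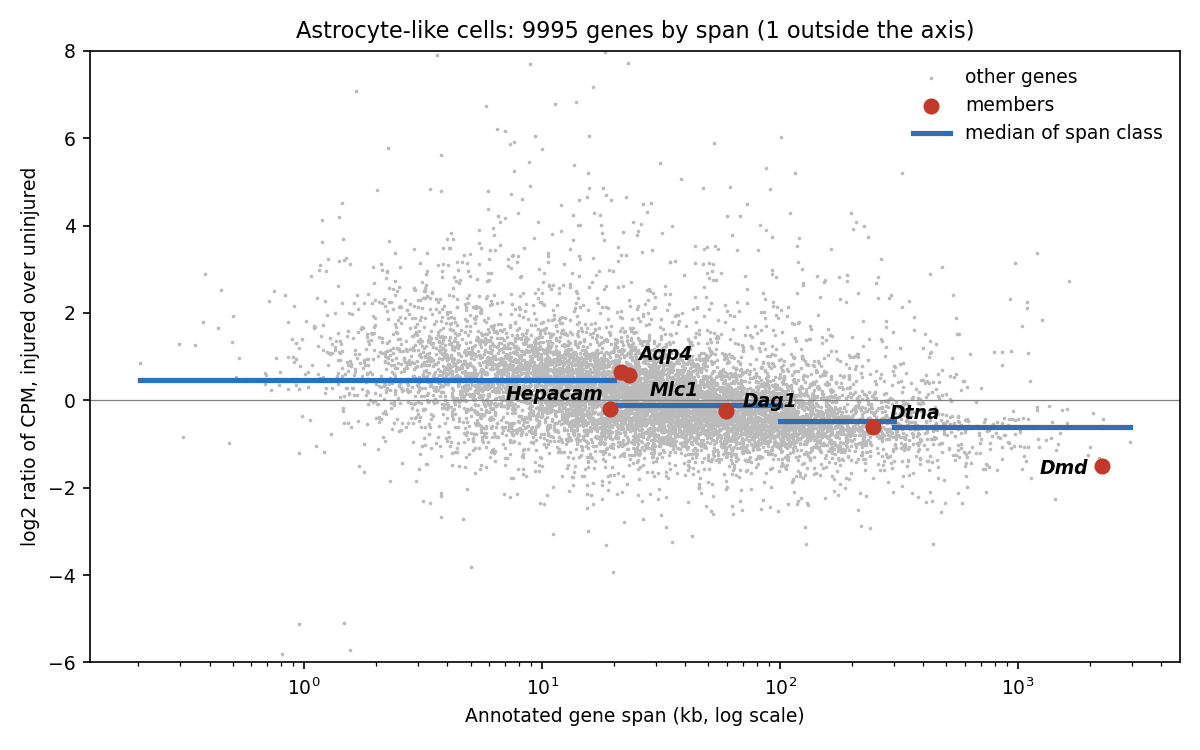
Log2 ratio of CPM with 1 CPM added, injured over uninjured (y axis), against annotated gene span in kb on a log axis for genes with at least 10 CPM in 1 condition of astrocyte-like cells (grey), with the 6 members in red and the median of each span class as a blue line. The medians step down from 0.47 to -0.61 with span, and Dmd at 2257 kb lies below its class median.

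Shares of cells with a UMI gave another view of the same cells. Among astrocyte-like cells an Aqp4 UMI was found in 71.1% (66.4 to 75.4%) after injury and 90.3% (89.3 to 91.3%) without. With each cell thinned to 1000 UMIs, which left out 35 injured and 67 uninjured cells, the Aqp4 shares were 59.5% and 69.3%. The shares thus went against the CPM, and no order is read from them. In microglia-like cells, which should lack the gene, an Aqp4 UMI was found in 4.76% of injured cells at a median depth of 14070.5 UMIs and in 6.45% of uninjured cells at 3169.

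For Dmd the share and the level pointed the same way. Among astrocyte-like cells a Dmd UMI was found in 49.3% (44.4 to 54.2%) after injury and 89.0% (87.8 to 90.0%) without, and in 26.1% and 63.1% after thinning. The Dmd share in microglia-like cells was 1.59% and 3.23%, at the depths given for Aqp4. The Dtna share was 55.5% (50.6 to 60.3%) and 87.6% (86.4 to 88.7%), or 30.5% and 56.1% after thinning, with 2.38% in injured microglia-like cells and 0 of 31 in uninjured ones, which allows a share of cells with a UMI of up to 9.68% at the limit of 3 counts used here for a count of 0 (exact upper bound 11.2%). The Hepacam share was 59.3% after injury and 76.3% without, or 27.9% and 41.3% thinned, and the Mlc1 share was 56.7% and 51.6%, or 29.5% and 20.7% thinned. In injured microglia-like cells these shares were 0.794% for Hepacam and 1.59% for Mlc1. The Dag1 share was 33.3% and 35.6%, or 7.31% and 11.9% thinned, beside 22.2% of the far deeper injured microglia-like cells and 1.65% of them when thinned.

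Of the 6 members, a thinned astrocyte-like cell held a median of 2 in the injured and 3 in the uninjured library. The mean was 1.81 ± 1.36 (SD over 383 cells of 1 library) and 2.62 ± 1.13 (SD over 3109 cells). No member was found in 20.9% of thinned injured cells and 2.35% of uninjured ones, and 4 or more were found in 10.4% and 21.3%. Of the injured astrocyte-like cells, 56 had no UMI of the astrocyte marker Gfap. Their median depth was 1404.5 UMIs and 24.7% of their UMIs were mitochondrial. Their Aqp4 was at 121 CPM, with a UMI in 19.6% of cells. The 362 injured cells with a Gfap UMI had a median of 4010.5 UMIs and 7.78% mitochondrial UMIs. Their Aqp4 was at 2300 CPM, with a UMI in 79.0%. The part of these 56 cells in the injured shares was not tested. Cells of 1 library are not replicates.

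Injured and uninjured astrocyte-like cells fell mostly in different clusters, so each value above sets these clusters against each other. Cluster 1, led by Gfap, Lcn2, Vgf and Tgm1, accounted for 76.1% of astrocyte-like cells after injury but 0.409% without. Without injury most lay in clusters 4, 5, 6 and 11, with 28.8, 23.3, 30.4 and 17.1%. In cluster 1 the 318 injured cells had Aqp4 at 2222 CPM (2156 to 2290), Mlc1 at 358 CPM (332 to 386), Dtna at 494 CPM (463 to 526) and Dmd at 340 CPM (314 to 367). The uninjured clusters had Dmd between 923 CPM in cluster 5 and 1387 CPM in cluster 11, and their lowest Dmd interval started at 889 CPM. Those 4 clusters thus all had more Dmd per UMI than the injured cells of cluster 1.

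Cluster 6 held enough cells of both conditions to be compared within itself, with 27 injured and 967 uninjured cells. There Aqp4 was at 3077 CPM (2808 to 3364) in injured and 1556 CPM (1519 to 1595) in uninjured cells. Mlc1 was at 567 CPM (455 to 698) and 243 CPM (228 to 258), and Dmd was at 790 CPM (657 to 942) and 1064 CPM (1033 to 1095). Dtna went the other way here, at 1363 CPM (1187 to 1559) in injured and 949 CPM (919 to 978) in uninjured cells of cluster 6. Hepacam too was higher, at 675 CPM (553 to 817) against 514 CPM (492 to 536). Within this cluster Dmd alone of these 5 was lower after injury. The injured values rested on few cells. Of the 27 cells, 5 gave 90 of the 214 Dtna UMIs, and 1 cell gave 39. The leading 5 cells gave 190 of 483 UMIs for Aqp4 and 39 of 89 for Mlc1. They gave 43 of 106 for Hepacam and 50 of 124 for Dmd, with the 5 cells taken for each gene.

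Cluster 4 was the shallowest astrocyte-like cluster, and mitochondrial UMIs made up 44.1% of its injured and 10.6% of its uninjured UMIs. In its 61 injured cells Aqp4 was at 567 CPM (444 to 714), against 966 CPM (926 to 1007) in its 914 uninjured cells. Mlc1 was at 94.6 CPM (48.9 to 165) and 170 CPM (153 to 187). Dmd was at 607 CPM (479 to 758) and 1377 CPM (1330 to 1427). In cluster 4, therefore, Aqp4 was lower in the injured cells, opposite to cluster 6, and the Mlc1 intervals overlapped. Dtna, at 756 CPM (613 to 924) against 1043 CPM (1002 to 1086), and Hepacam, at 276 CPM (192 to 384) against 454 CPM (427 to 483), were likewise lower in cluster 4 and higher in cluster 6. The injured values of cluster 4 also rested on few cells. Of its 72 injured Aqp4 UMIs 48 came from 5 cells and 33 from 1 cell. The leading 5 cells for each gene gave 39 of 77 UMIs for Dmd, 42 of 96 for Dtna and 19 of 35 for Hepacam. Without cluster 4 the log2 ratios over all other astrocyte-like cells were 0.60 for Aqp4, 0.54 for Mlc1, -0.59 for Dtna and -1.47 for Dmd. The part of the mitochondrial share in the values of cluster 4 was not tested.

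**Figure D3:**
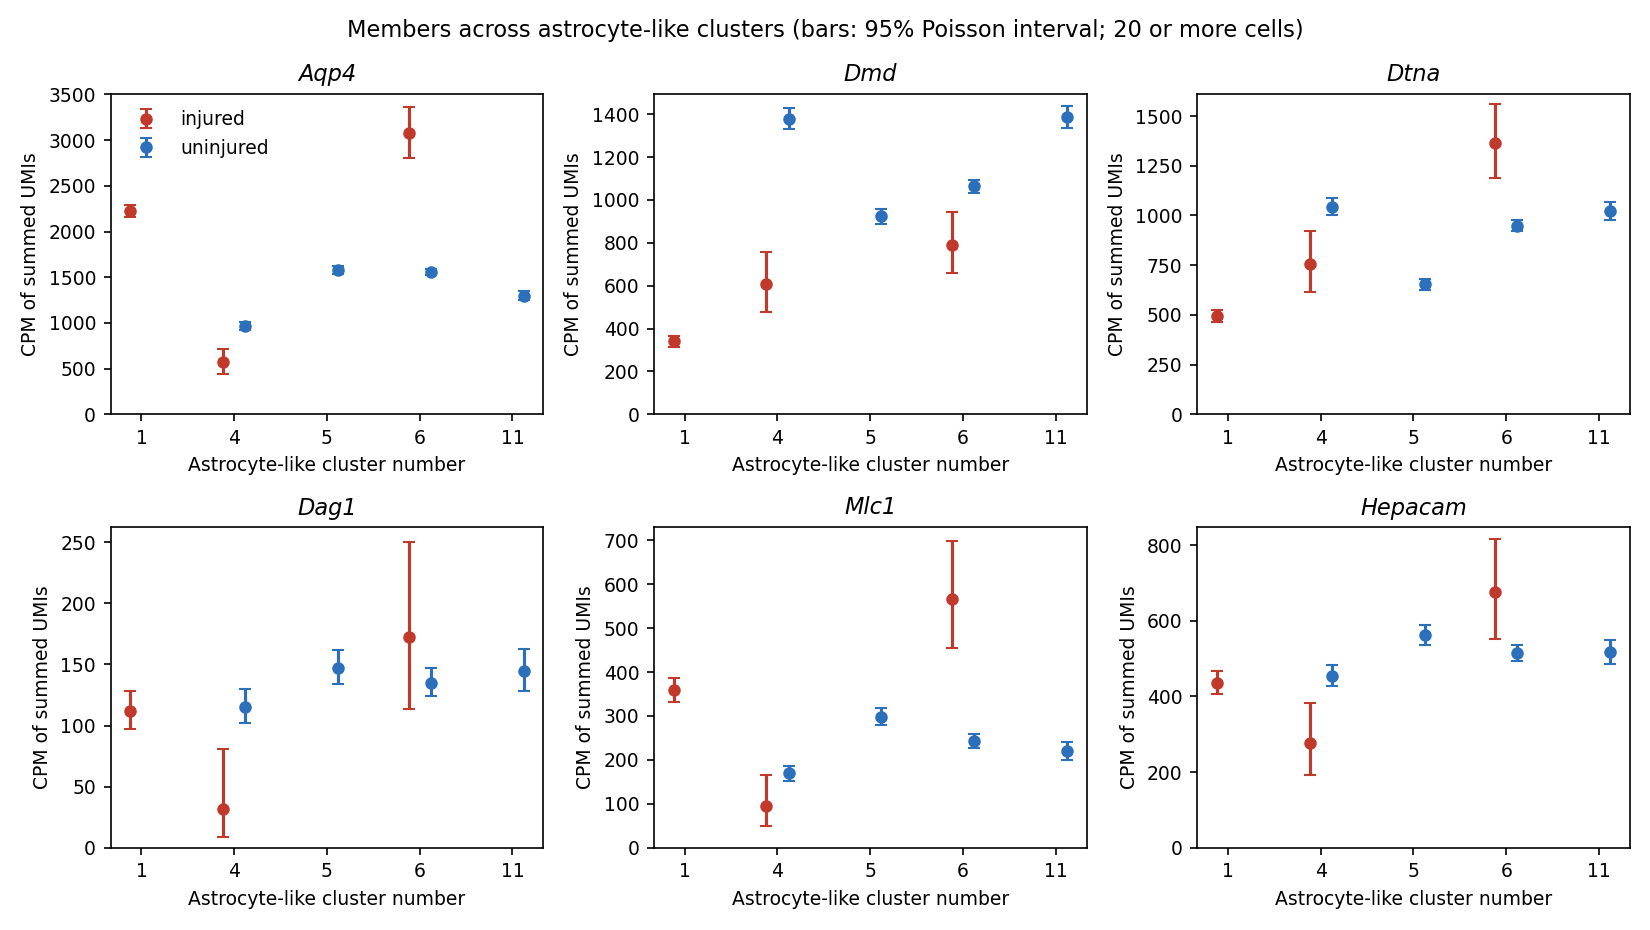
CPM of summed UMIs (y axis) of each member in astrocyte-like clusters (x axis) with at least 20 cells of a condition, injured in red and uninjured in blue, with 95% Poisson intervals. Cluster 1 appears in red only, and in cluster 6 Aqp4, Mlc1, Dtna and Hepacam are higher in injured cells while Dmd is lower.

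Reactive markers were set beside the members in the injured cells. Lcn2 (lipocalin 2) and Timp1 (a metalloproteinase inhibitor) mark reactive astrocytes, and 175 injured astrocyte-like cells had a UMI of either. These cells had Aqp4 at 2560 CPM (2475 to 2649), against 1664 CPM (1584 to 1748) in the 243 cells without. Of the 3355 Aqp4 UMIs of the former, 725 came from 5 cells and 184 from 1 cell. In the latter 234 of 1600 came from 5 cells. Dtna was at 483 CPM (446 to 522) in the former and 726 CPM (673 to 782) in the latter, and Dmd was at 349 CPM (318 to 382) and 475 CPM (433 to 521). Mlc1, at 364 CPM (332 to 398) and 347 CPM (311 to 387), and Hepacam, at 458 CPM (422 to 496) and 437 CPM (396 to 481), overlapped. Median depth was 4838 UMIs in cells with a Lcn2 or Timp1 UMI and 2731 in cells without, and mitochondrial UMIs were 5.82% and 12.6%. A UMI is also more often found in a deeper cell, and the part of depth was not tested.

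In the uninjured library Gfap, the intermediate filament of astrocytes, had a UMI in 504 astrocyte-like cells. These had Aqp4 at 1557 CPM (1506 to 1610), against 1357 CPM (1334 to 1381) in the 2672 cells without. Mlc1 was at 266 CPM (245 to 288) with a Gfap UMI and 232 CPM (222 to 242) without. Dmd was at 1064 CPM (1021 to 1107) and 1162 CPM (1140 to 1184). Median depths were 4050.0 and 3147 UMIs. Beside the astrocyte-like class stood 783 uninjured cells of 2 clusters that had astrocyte markers but were led by neuron genes, and these had Aqp4 at 1365 CPM (1325 to 1407), Dtna at 696 CPM (667 to 726) and Dmd at 813 CPM (782 to 845).

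The next question was how far each member was particular to astrocyte-like cells. Aqp4 was past 4-fold higher in astrocyte-like cells than in every other class compared in either library, and Dag1 past 4-fold higher than in 2 of the 9 class comparisons. In the injured library 6 of the 6 members were past 4-fold higher than in microglia-like cells, beside 19.4% of all genes. The counts were 5 against endothelial-like cells (15.9% of all genes) and 5 against fibroblast-like cells (12.2%), with Dag1 the exception. They were 3 against the OPC-like cells, precursors of oligodendrocytes (7.18%), and 2, Aqp4 and Hepacam, against ependymal-like cells (8.02%). In the uninjured library the counts were 6 against endothelial-like (21.2% of all genes), 5 against microglia-like (26.7%), 5 against fibroblast-like (11.9%) and 1, Aqp4, against ependymal-like cells (11.4%).

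Aqp4 in the injured library followed the order astrocyte-like at 2181 CPM, ependymal-like at 105 CPM (90.2 to 122), fibroblast-like at 19.4 CPM (10.6 to 32.6), OPC-like at 5.16 CPM (1.67 to 12.04) and microglia-like at 3.17 CPM (1.16 to 6.91). Each of the last 3 overlapped its neighbour. Endothelial-like cells had 0 Aqp4 UMIs in 70 injured cells, and astrocyte-like cells were at least 545-fold higher with these set at 3 counts over the group (exact lower bound of the ratio 443). In the uninjured library the order was astrocyte-like at 1396 CPM, ependymal-like at 252 CPM (180.3 to 344), fibroblast-like at 54.8 CPM (32.5 to 86.6), endothelial-like at 28.3 CPM (5.84 to 82.7) and microglia-like at 17.1 CPM (2.07 to 61.8). The last 3 overlapped.

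Dmd had another order. In the injured library ependymal-like cells were highest at 1297 CPM (1243 to 1352), then OPC-like cells at 1068 CPM (1004 to 1135) and astrocyte-like cells at 402 CPM. The ratio of astrocyte-like to ependymal-like cells for Dmd was 0.310 (0.287 to 0.335). In the uninjured library it was 0.777 (0.683 to 0.889), with 1143 CPM in astrocyte-like and 1470.0 CPM (1287 to 1671) in ependymal-like cells. The other Dmd levels in injured cells were 44.4 CPM (30.3 to 62.6) in fibroblast-like, 14.7 CPM (7.33 to 26.3) in endothelial-like and 1.06 CPM (0.128 to 3.82) in microglia-like cells. In uninjured cells Dmd was at 104 CPM (51.8 to 186) in endothelial-like and 54.8 CPM (32.5 to 86.6) in fibroblast-like cells, which overlapped. Mural cells of vessels were too few to compare, but the 13 mural-like cells of the injured library held 103 Dmd UMIs, 1214 CPM (991 to 1472), with a Dmd UMI in all 13. Dystrophin is a muscle protein and mural cells are contractile, but a link of this to the Dmd level was not tested.

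Dag1, a laminin receptor of many cells, was spread over most classes. In the injured library it was at 116 CPM (101 to 134) in ependymal-like, 114 CPM in astrocyte-like, 97.0 CPM (75.6 to 123) in fibroblast-like, 93.9 CPM (75.6 to 115) in OPC-like and 81.4 CPM (62.3 to 105) in endothelial-like cells. These neighbours overlapped, and microglia-like cells stood below them at 21.7 CPM (15.6 to 29.4). In the uninjured library Dag1 was at 134 CPM (97.3 to 180) in fibroblast-like and 120 CPM (72.2 to 187) in ependymal-like cells, beside 136 CPM in astrocyte-like cells. These 3 overlapped, and microglia-like cells at 34.2 CPM (9.32 to 87.6) and endothelial-like cells at 28.3 CPM (5.84 to 82.7), from 4 and 3 UMIs, stood below astrocyte-like cells.

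Dtna and Hepacam shared an order. In the injured library Dtna was at 586 CPM in astrocyte-like, 177 CPM (158 to 198) in ependymal-like and 150 CPM (126 to 176) in OPC-like cells, and at no more than 8.32 CPM in the other named classes. Hepacam was at 449, 110 (94.5 to 127) and 103 CPM (83.9 to 125) in the same 3 classes. In each case the ependymal-like and OPC-like levels overlapped. Mlc1 was at 357 CPM in astrocyte-like and 284 CPM (259 to 310) in ependymal-like cells, a ratio of 1.26 (1.12 to 1.41), but at 6.19 CPM (2.27 to 13.5) in OPC-like cells.

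**Figure D4:**
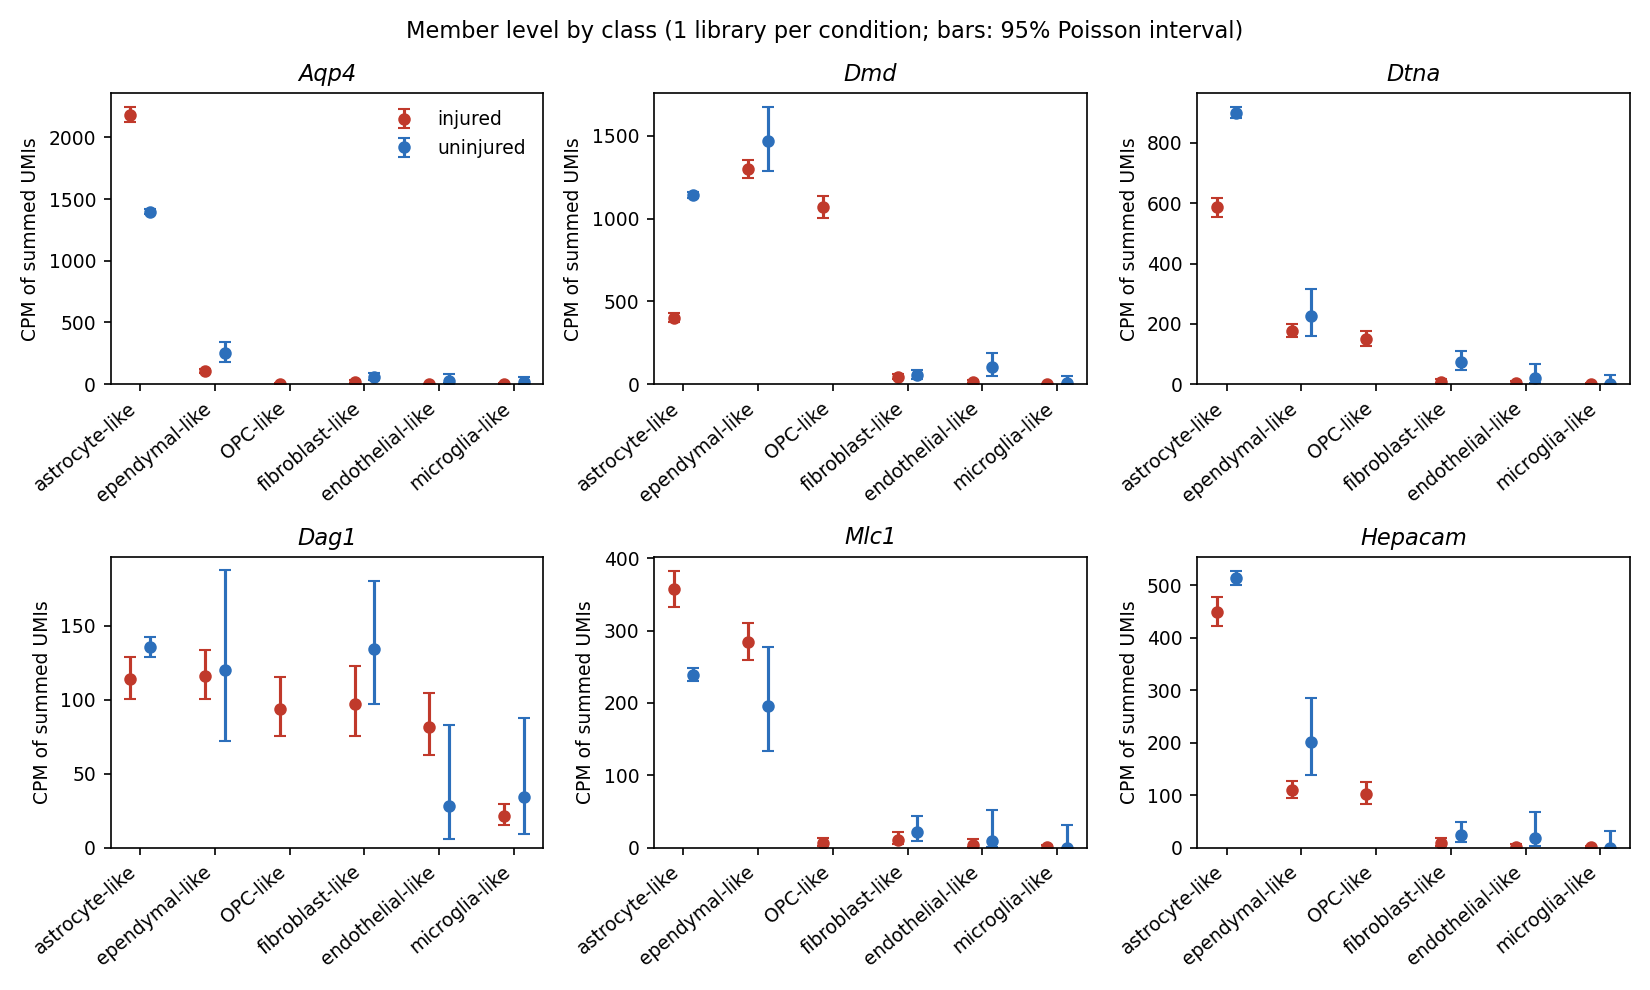
CPM of summed UMIs (y axis) of each member in 6 classes of cells (x axis), injured in red and uninjured in blue, with 95% Poisson intervals and 1 library per condition. Classes with fewer than 20 cells of a library are left out, so OPC-like cells have no uninjured point. Aqp4 is highest in astrocyte-like cells, Dmd is highest in ependymal-like cells, and Dag1 is spread over the classes.

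Ependymal-like cells, which line the central canal, carry dystrophin and were the class best placed to be compared between conditions after the astrocyte-like cells, with 144 injured and 31 uninjured cells. All 7 ependymal markers were found in both, at a summed level of 2174 CPM after injury and 5199 CPM without. There Aqp4 was lower after injury, at 105 CPM from 178 UMIs against 252 CPM from 40 UMIs, a ratio of 0.416 (0.294 to 0.602) and a log2 ratio of -1.26. In uninjured cells 36 of the 40 Aqp4 UMIs came from 5 cells and 21 from 1 cell, and in injured cells 72 of 178 came from 5 cells. Astrocyte markers summed to 2759 CPM in injured ependymal-like cells (10 of 10 markers with a UMI) and 3312 CPM in uninjured ones (9 of 10, with Gfap at 0), and the part of neither marker list in the Aqp4 difference was tested.

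Of the 6 members, 1 was past 2-fold lower in ependymal-like cells (Aqp4), beside 16.1% of the 10797 genes tested, and 0 were past 2-fold higher, beside 12.1%. Dmd, at 1297 and 1470.0 CPM, had a ratio of 0.882 (0.770 to 1.01) and Dtna a ratio of 0.779 (0.550 to 1.13), each with an interval that held 1. Mlc1 was at 284 against 196 CPM (133 to 278), a ratio of 1.45 (1.01 to 2.16). Hepacam was at 110 against 202 CPM (138 to 285), a ratio of 0.544 (0.372 to 0.818). Dag1 had a ratio of 0.970 (0.605 to 1.64).

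The Dmd ratio could be set beside another class. In OPC-like cells Dmd was at 1068 CPM in 41 injured cells and 1128 CPM (925 to 1364) in 14 uninjured cells, which are below the minimum of 20 used elsewhere, and the ratio was 0.946 (0.775 to 1.17). The median log2 ratio of genes over 300 kb was -0.048 in ependymal-like and -0.74 in OPC-like cells, beside -0.61 in astrocyte-like cells. In fibroblast-like cells the Dmd ratio was 0.810 (0.441 to 1.53), from 32 and 18 UMIs. The difference between classes was not tested.

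Counts over the members in the smaller classes rested on few UMIs. In fibroblast-like cells 3 members (Aqp4, Dtna and Hepacam) were past 2-fold lower and 0 higher, beside 17.0% and 14.6% of all genes. Dtna had 6 UMIs in 43 injured and 24 in 95 uninjured fibroblast-like cells, 12 of the latter in 1 cell. Hepacam had 6 and 8 UMIs there, and its ratio of 0.342 (0.098 to 1.12) had an interval that held 1. In endothelial-like cells, of 5 members tested, 4 were past 2-fold lower and 1 (Dag1) higher, beside 16.7% and 14.7% of all genes. Dag1 had 61 injured but only 3 uninjured UMIs, and its ratio of 2.88 (0.939 to 14.3) had an interval that held 1. Of the lower ones, 3 had 3 UMIs or fewer in either library. The other was Dmd, with 11 UMIs in each library and a ratio of 0.142 (0.056 to 0.360). In these cells mural markers summed to 36.0 CPM after injury and 868 CPM without, and astrocyte markers to 126 and 934 CPM, and their part in the Dmd ratio was not tested. In microglia-like cells Aqp4, with 6 and 2 UMIs, was the 1 lower of 2 members tested and 0 were higher, beside 22.2% and 18.1%. In OPC-like cells 0 of 5 members tested were past 2-fold in either direction, beside 19.7% higher and 19.8% lower.

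Other genes of the complex were taken from 6 lists with 57 genes, of which 35 had at least 10 CPM in astrocyte-like cells of 1 condition. Of these 35, 4 (11.4%) were past 2-fold higher and 3 (8.57%) past 2-fold lower after injury, and 28 were within 2-fold. These shares stand beside 13.8% and 7.66% of all genes. The median log2 ratio of the 35 was -0.032.

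Among 12 dystrophin complex partners that passed the filter (of 15 listed), 2 were past 2-fold higher and 2 lower, with a median log2 ratio of -0.40. Utrn (utrophin, the dystrophin relative) was at 279 CPM in injured and 443 CPM in uninjured astrocyte-like cells, a log2 ratio of -0.67, and so was lower too. Sntb2 (syntrophin beta 2) was at 28.2 and 71.0 CPM, log2 ratio -1.30, and Sntg1 (syntrophin gamma 1) at 5.72 and 13.3 CPM, log2 ratio -1.09. Sntg2 (syntrophin gamma 2) was past 2-fold higher, with 73 injured and 8 uninjured UMIs and a log2 ratio of 4.29. Sgcd (delta sarcoglycan) had 30 and 23 UMIs, at 13.2 and 1.99 CPM, log2 ratio 2.25. Sgcd was far higher in injured OPC-like cells, at 836 CPM, and Sntg2 in injured ependymal-like cells, at 121 CPM, and the part of RNA from other cells was not tested.

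Of 10 dystroglycan ligands 4 passed the filter and 1 was past 2-fold lower. That one was Lama2 (laminin alpha 2), at 180 CPM in injured and 376 CPM in uninjured astrocyte-like cells, log2 ratio -1.06. Lama2 was higher still in fibroblast-like cells, at 624 and 1662 CPM. Of 13 genes that add sugars to dystroglycan 12 passed the filter, and 1, the kinase Pomk, was past 2-fold higher, at 14.5 and 6.22 CPM with a log2 ratio of 1.10.

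Among 6 channels and partners of the endfoot and of Mlc1 and Hepacam, 5 passed and 1 was past 2-fold higher. Lrrc8a, a subunit of the volume-regulated anion channel, was at 259 CPM in injured and 102 CPM in uninjured astrocyte-like cells, log2 ratio 1.33. Kcnj10 (the inward rectifier Kir4.1 of endfeet) was at 478 and 457 CPM, log2 ratio 0.063. Of 11 other aquaporins 2 passed and neither was past 2-fold. The highest was Aqp9, at 18.05 and 28.3 CPM. Neither of the 2 metalloproteinases listed, which can cut dystroglycan, passed the filter, and Mmp2 had 3 injured and 1 uninjured UMI.

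**Figure D5:**
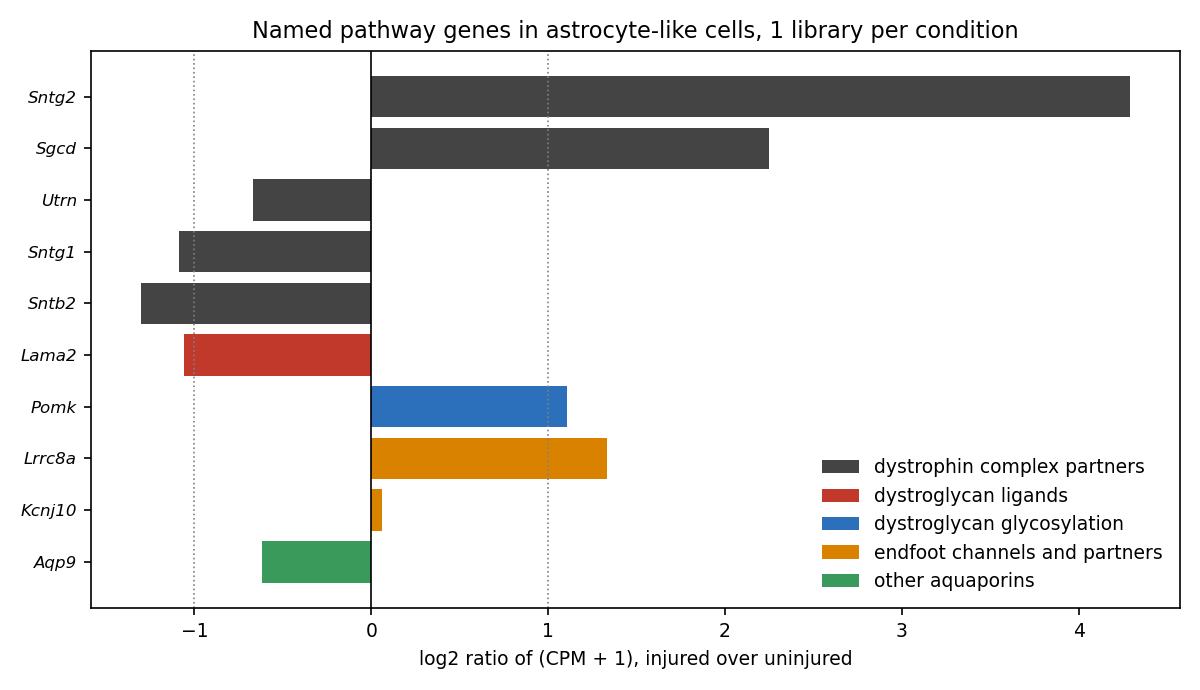
Log2 ratio of CPM with 1 CPM added, injured over uninjured (x axis), of the pathway genes past 2-fold in astrocyte-like cells and of Utrn, Kcnj10 and Aqp9, the highest of their lists (y axis), coloured by list. The bars of Sntg2, Sgcd, Lrrc8a and Pomk pass the upper dotted 2-fold line and those of Sntb2, Sntg1 and Lama2 the lower one.

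Likeness between genes was measured as Pearson's r of log2(CPM + 10) over the 11 sums of a class and condition with at least 20 cells, among 8694 genes that reached 50 CPM in 1 sum or more. The sums share libraries and differ in depth, and r is given as a description. Among the members the highest r was 0.99 between Dtna and Hepacam and the lowest was 0.55 between Aqp4 and Dag1. The genes most like Aqp4 were Nwd1, Slc4a4 and Slc24a4 (r 0.97 each), and those most like Mlc1 were Plcd4, Shroom3 and Rfx4 (r 0.98, 0.98 and 0.97). Those most like Dmd were Il1rapl1, Rims2 and Epha5 (r 0.98, 0.97 and 0.97). Dag1 was most like Mmut, Auts2 and Casc4 (r 0.97, 0.97 and 0.94). Dtna was most like Mboat2, Hepacam and Megf10 (r 0.99, 0.99 and 0.98), and Hepacam was most like Trim9, Dtna and Megf10 (r 0.99 each).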

How the data were processed

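Whole cells sorted for tdTomato were profiled by the authors with a 3′ single-cell kit. The authors deposited 1 matrix of raw UMI counts per condition, with cells already called. The file headers name Cell Ranger 7.1.0, and the submitters' processing notes name Cell Ranger 8.0.1 and mm10. The barcode libraries were not used here. Of 32285 gene identifiers 32235 (99.8%) matched GENCODE M21 on GRCm38 by identifier.

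Cells with more than 500 and fewer than 50000 UMIs were kept, which removed 40 of 919 injured barcodes and 0 of 4159 uninjured ones. After scaling each cell to a total of 10000 and taking logs, 2000 variable genes, 15 components, 15 neighbours and Leiden resolution 0.5 gave 13 clusters (Python 3.11.15, scanpy 1.11.5, igraph 0.11.9, scipy 1.17.1). Clusters were named by their best marker score, which had to exceed 0.2, with 3 markers or more found in 10% of cells and no rival class ahead among the 10 leading genes. This named 11 clusters in 7 classes. 2 clusters with astrocyte markers but neuron genes among the leading ones stayed unnamed (24 injured and 783 uninjured cells). No doublets were removed, and Scrublet called 2 injured and 0 uninjured cells, too few for the caller to have worked.

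Classes were compared on summed counts. Levels have exact Poisson intervals, shares exact Clopper-Pearson intervals and ratios exact conditional binomial intervals, all of counting error only. Called means past 2-fold between conditions or 4-fold between classes among genes at 10 CPM or more in 1 side. The ratio was tested on simulated data of 9242 genes with 200 changed 4-fold in astrocyte-like cells. All changed genes were recovered in direction (100%), and 95.3% of intervals covered the true ratio. The counts were drawn from a Poisson model without spread between cells or libraries, which the intervals also assume. Coverage near 95% was therefore built in and says nothing about such spread.

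Named genes were the 6 members, the pathway genes past 2-fold, the highest gene of each list and the 3 genes most like each member. Some results of the pathway lists are not reported here. Members, lists and tests were chosen with earlier results of these data known. Gene starts came from RefSeq tables.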

Additional observations from a re-analysis of the deposited data

Results flagged for a closer look

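Aqp4 moved in opposite directions in different classes of cells, which is why it is listed here. Its log2 ratio, injured over uninjured, was 0.64 in astrocyte-like cells and -1.26 in ependymal-like cells (178 and 40 UMIs), with counting intervals on opposite sides of no change. The difference between the classes was not tested, since each condition had 1 library. In fibroblast-like cells the log2 ratio of Aqp4 was -1.45, from 14 UMIs in 43 injured cells and 18 UMIs in 95 uninjured cells. Of the 14 injured UMIs 10 came from 1 cell. That difference was not tested either. Astrocyte markers summed to 2759 and 3312 CPM in injured and uninjured ependymal-like cells and to 1729 and 3699 CPM in fibroblast-like cells, and their part was not tested.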

How the results depend on the processing

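No paired analysis was possible because there was a single library of either condition. Over 16 alternatives the log2 ratio, injured over uninjured astrocyte-like cells, ranged from 0.20 to 0.87 for Aqp4, 0.40 to 0.71 for Mlc1, -0.92 to -0.41 for Dtna, -0.57 to -0.12 for Dag1 and -1.75 to -1.16 for Dmd, with the direction kept in each. Dmd was past 2-fold lower in all 16. Hepacam ranged from -0.48 to 0.093 and reversed once, in male cells only (0.093).

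Several alternatives moved values beyond their counting intervals. With male cells only the log2 ratios were Aqp4 0.87, Dtna -0.41, Dmd -1.16 and Mlc1 0.71. With each cell weighted equally they were Aqp4 0.20, Dag1 -0.57, Dtna -0.92, Dmd -1.72, Mlc1 0.40 and Hepacam -0.48. Scaling by the median ratio of genes gave Aqp4 0.77, Dtna -0.49, Dmd -1.38, Mlc1 0.71 and Hepacam -0.068. Cells with an Aldh1l1 UMI gave Aqp4 0.56, Dmd -1.28 and Hepacam -0.30. Leaving out the top 5% of cells by Scrublet score gave Aqp4 0.58. Alternatives chosen after seeing the data gave Aqp4 0.58 with unnamed clusters counted as astrocyte-like, Aqp4 0.69 with at most 20% mitochondrial UMIs, and Dtna -0.86 and Dmd -1.75 with the largest injured cluster only. Leaving out shared barcodes or the shallowest cluster, also chosen then, moved no member beyond its interval. The cause was not tested.

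Pathway genes past 2-fold higher numbered 2 with 10 CPM added, 8 without a filter on low genes and 9 in cells with an Aldh1l1 UMI, beside 4. Those lower numbered 6 without the filter, 5 in the largest injured cluster, and 1 under median scaling or in male cells, beside 3. Thinning to 1000 UMIs, which weights cells equally, gave injured levels of Aqp4 1642, Dag1 78.3, Dtna 475, Mlc1 402 and Hepacam 366 CPM, and uninjured levels of Aqp4 1358, Dag1 127 and Hepacam 536 CPM. Counts of members past 4-fold between classes stayed within 1.5 times under the 4 alternatives run on them. Depth limits the small classes, where 3 UMIs come to 18.9 CPM in uninjured ependymal-like and 25.7 CPM in uninjured microglia-like cells.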
